A study of Mus musculus with 15 samples.

Results

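The genes described here are the aryl hydrocarbon receptor gene Ahr, its partner gene Arnt, and 4 classical target genes of the pair, Ahrr, Cyp1a1, Cyp1b1 and Tiparp. They were chosen by symbol, through the Entrez identifiers in the count tables, and are 6 of 22797 genes counted. RNA levels were read in 2 classes of innate lymphoid cell, group 2 (ILC2) and group 3 (ILC3), isolated from small intestines of female mice. Such cells are lymphocytes that carry no rearranged antigen receptor. Per the labels, cells from 6 mice were pooled at each of 4 zeitgeber times (ZT, the hour of the imposed day), 4, 10, 16 and 23, then stained and sorted by flow cytometry. The 15 libraries make 8 groups, ILC2 and ILC3 at ZT4, ZT10, ZT16 and ZT23, with 2 libraries in each group and 1 in ILC2 at ZT16. The sources used here do not give the strain, the age of the mice or the gates of the sort, and the labels name no treatment, mutant allele or transgene in any group.

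The aryl hydrocarbon receptor is a transcription factor of the bHLH-PAS family that binds small molecules, among them breakdown products of tryptophan, dietary indoles and environmental pollutants. Without a ligand it sits in the cytosol in a chaperone complex, and with one it enters the nucleus, pairs with the ARNT protein and binds DNA at xenobiotic response elements, whose core is GCGTG. Its targets include enzymes that break its ligands down and proteins that shut the receptor off, so that the pathway limits itself. In the gut, ILC3 are known to need Ahr for their maintenance and for interleukin-22, and in ILC2 the receptor is known to restrain the interleukin-33 receptor gene Il1rl1.

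Total counts ran from 4016298 to 18538315 in the ILC2 libraries and from 5903163 to 24794403 in the ILC3 libraries. All 8 ILC2 markers were higher in ILC2 and all 6 ILC3 markers were higher in ILC3, which matches the labels of the cells. Every ILC2 library carries the batch label 1 and every ILC3 library the batch label 2, so an effect of batch and one of cell type cannot be told apart, while the times were compared within a batch. Markers of other cells were present as well. The 6 plasma cell markers summed to between 19398 and 195574 CPM (counts per 1000000, after TMM scaling for composition) in ILC2, with both extremes at ZT23, and to between 569 and 4525 in ILC3. The 11 epithelial markers summed to between 241 and 1221 CPM in ILC2 and between 417 and 6533 in ILC3, where ZT23 replicate 2 was the highest. Of 6 T cell markers 4 were higher in ILC3 and 1 in ILC2, with sums of 562 to 820 CPM in ILC2 and 329 to 2632 in ILC3. Of 6 stromal and endothelial markers 1 was higher in ILC2. The design text calls the replicates biological without saying whether each came from its own pool of mice, so the p-values may measure technical spread only. In bulk RNA, fewer cells of a type and less RNA per cell cannot be told apart.

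The promoters of the 4 targets are shown first because the element sought in them is the one that AHR and ARNT bind. For 5 of the 6 genes the RefSeq promoter table of GRCm38.p6 (the mm10 build) had an entry, and Ahr had none. Each line below is the 250 bases before the start site, read on the strand of the gene, with the letters GCGTG (or CACGC, where the core lies on the opposite strand) in capitals.
Ahrr: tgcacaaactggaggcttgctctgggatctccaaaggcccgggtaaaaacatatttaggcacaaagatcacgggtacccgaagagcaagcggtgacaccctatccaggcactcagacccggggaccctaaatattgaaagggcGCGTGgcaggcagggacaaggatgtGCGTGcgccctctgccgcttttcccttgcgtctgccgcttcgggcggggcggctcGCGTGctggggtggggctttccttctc
Cyp1a1: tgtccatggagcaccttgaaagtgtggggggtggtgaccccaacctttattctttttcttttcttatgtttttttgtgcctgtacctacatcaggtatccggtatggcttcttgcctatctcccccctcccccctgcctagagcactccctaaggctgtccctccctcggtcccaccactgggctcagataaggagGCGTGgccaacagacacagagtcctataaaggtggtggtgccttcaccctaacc
Cyp1b1: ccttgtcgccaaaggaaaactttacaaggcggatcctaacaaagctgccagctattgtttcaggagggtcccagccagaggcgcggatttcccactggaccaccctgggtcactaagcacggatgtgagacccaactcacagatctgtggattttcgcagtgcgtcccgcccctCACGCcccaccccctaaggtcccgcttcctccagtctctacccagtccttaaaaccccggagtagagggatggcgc
Tiparp: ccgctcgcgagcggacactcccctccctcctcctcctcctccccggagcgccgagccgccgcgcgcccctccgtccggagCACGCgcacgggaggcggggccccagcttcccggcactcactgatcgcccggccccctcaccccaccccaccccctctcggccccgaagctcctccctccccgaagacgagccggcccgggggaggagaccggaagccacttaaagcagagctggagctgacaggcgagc
These stretches lie at chr13:74292332-74292581 on the minus strand for Ahrr, chr9:57697363-57697612 on the plus strand for Cyp1a1, chr17:79715062-79715311 on the minus strand for Cyp1b1, and chr3:65528197-65528446 on the plus strand for Tiparp.

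The promoter of Ahrr held the core 3 times, starting 107, 82 and 27 bases before the start site, and the other 3 targets and Arnt held it once each. The 1 core in Cyp1a1 began 54 bases before the start, the Cyp1b1 core spanned 76 to 72 bases before it and the Tiparp core 170 to 166 bases before it, the last pair on the opposite strand. Only the Ahrr core nearest the start stood in the longer form TNGCGTG. On both strands of windows of 300 bases (250 before to 50 after the start), GCGTG was present in 32.4% of 32851 promoters and in 47.1% of those of the genes tested, and TNGCGTG in 5.07% and 7.48%. GCGTG also overlaps one form of the hypoxia response element, and a match describes letters, not a bound site. The best studied elements of Cyp1a1 lie further upstream than this window. The stretch printed for Cyp1a1 lies inside the span of that gene (57687928 to 57703824). Its start site is therefore not the outer end of the span, whereas the stretches of Ahrr, Cyp1b1 and Tiparp adjoin their spans.

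Ahr RNA was about as abundant in ILC2 as in ILC3. Ahr (Entrez 11622; mm10 chromosome 12, 35497979 to 35534989) had 190 and 196 CPM in the ILC2 libraries at ZT4, 309 and 285 CPM at ZT10, 221 CPM at ZT16, and 165 and 386 CPM at ZT23. In ILC3 it had 327 and 239 CPM at ZT4, 311 and 292 CPM at ZT10, 283 and 291 CPM at ZT16, and 217 and 121 CPM at ZT23. Most of each range was shared with the other, and both the lowest and the highest ILC2 values came from the 2 libraries at ZT23. The means were 250 ± 79.4 CPM in ILC2 (SD, n = 7) and 260 ± 66.8 in ILC3 (n = 8). The log2 fold change, ILC3 minus ILC2, was 0.06 ± 0.19 (SE; edgeR quasi-likelihood test, adjusted p = 0.871). Its 95% interval, -0.36 to 0.49, corresponds to ILC3 at 0.778 to 1.40 times the ILC2 level. The estimate turned negative without ILC2 ZT23 replicate 1 (-0.07) or ILC3 ZT23 replicate 1 (-0.06).

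Arnt, which encodes the partner with which AHR binds xenobiotic response elements, was even closer between the cell types. Arnt (Entrez 11863; chromosome 3, 95434367 to 95497240) ran from 58.2 to 89.8 CPM in ILC2 (median 80.3) and from 62.8 to 102 CPM in ILC3 (median 80.3). Its log2 fold change was 0.01 ± 0.13, with a 95% interval of -0.27 to 0.29 (edgeR adjusted p = 1.00), and its sign changed without any 1 of 8 libraries. In each cell type the library with the least Arnt was also the one with the least Ahr, ZT23 replicate 1 in ILC2 and ZT23 replicate 2 in ILC3.

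Ahrr, the repressor that competes with the receptor for ARNT, varied more between libraries than either of them. Ahrr (Entrez 11624; chromosome 13, 74211118 to 74292331) had 13.6 and 24.0 CPM in ILC2 CPM at ZT4, 14.4 and 26.1 CPM at ZT10, 19.3 CPM at ZT16, and 8.09 and 19.9 CPM at ZT23. In ILC3 it had 7.26 and 24.0 CPM at ZT4, 15.9 and 23.8 CPM at ZT10, 25.6 and 39.5 CPM at ZT16, and 38.0 and 6.24 CPM at ZT23. The 2 libraries of ILC3 ZT23 lay near opposite ends of the ILC3 range, and the ILC2 range fell wholly inside it. The coefficient of variation was 55.2% in ILC3 and 35.1% in ILC2, against 14.96% and 14.7% for Arnt. For Ahr it was 25.7% in ILC3 and 31.8% in ILC2, so in ILC2 Ahrr was only slightly more variable than Ahr. The log2 fold change was 0.28 ± 0.40 (95% interval -0.60 to 1.15, edgeR adjusted p = 0.661), and without ILC3 ZT23 replicate 1 it was -0.18.

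**Figure D1:**
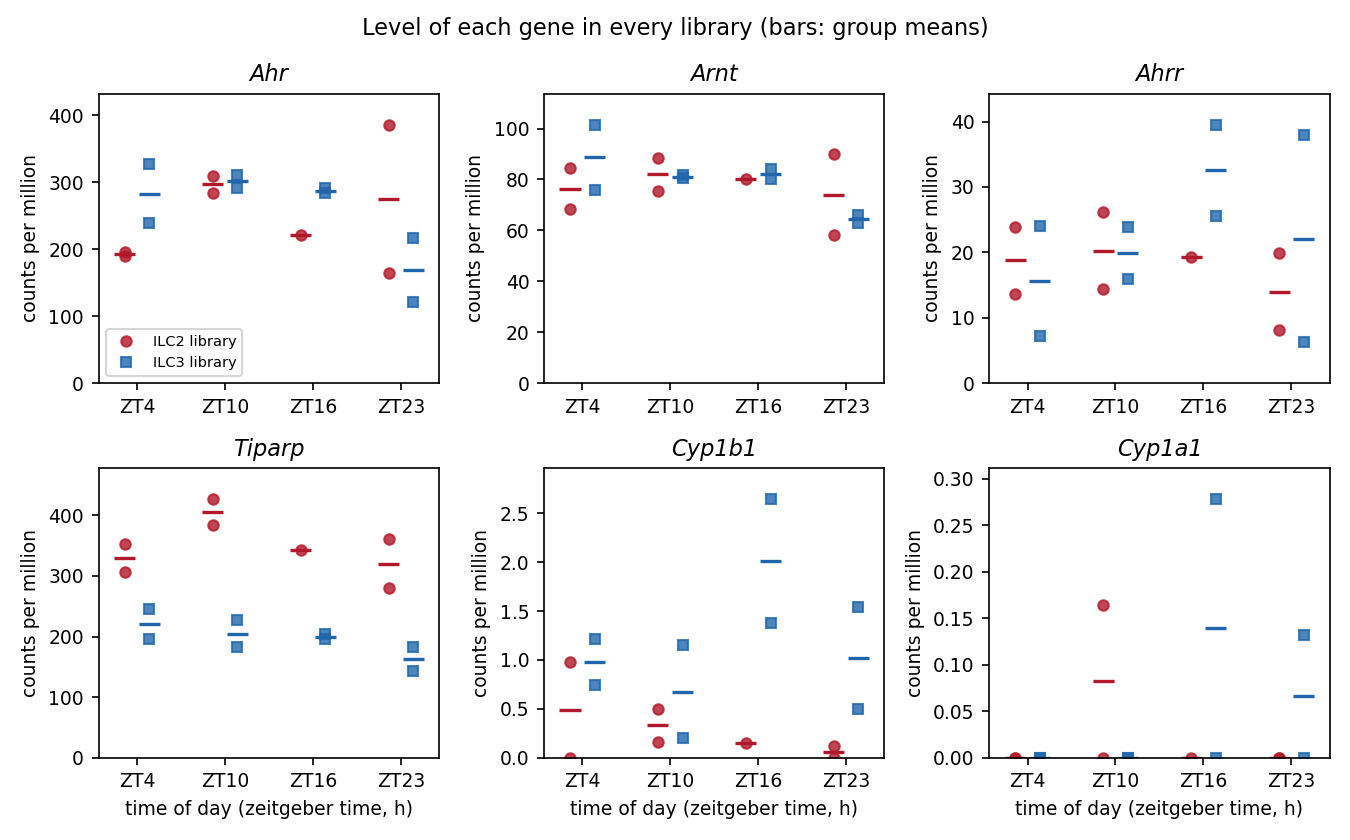
Level of each of the 6 genes in every library, as TMM-scaled CPM (vertical axes from 0, scaled per gene), against zeitgeber time in hours, with ILC2 libraries as red circles, ILC3 libraries as blue squares and bars at group means (n = 2, or 1 for ILC2 ZT16). Tiparp is the gene whose ILC2 values (280 to 426) all lie above its ILC3 values (144 to 246), and Cyp1a1 is at 0 in 12 of the 15 libraries.

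Tiparp was the 1 gene of the set that edgeR called between the cell types, and it was higher in ILC2. It encodes an enzyme that attaches ADP-ribose to the receptor and brings about its loss, as one of the feedback arms of the pathway. Tiparp (Entrez 99929; chromosome 3, 65528447 to 65555518) had 353 and 306 CPM in ILC2 CPM at ZT4, 426 and 384 CPM at ZT10, 343 CPM at ZT16, and 280 and 361 CPM at ZT23. In ILC3 it had 246 and 196 CPM at ZT4, 226 and 182 CPM at ZT10, 203 and 196 CPM at ZT16, and 182 and 144 CPM at ZT23. The lowest ILC2 library stood above the highest ILC3 library, so the cell types did not overlap. The means were 350 ± 48.3 CPM in ILC2 (n = 7) and 197 ± 30.6 in ILC3 (n = 8). The log2 fold change was -0.83 ± 0.13 (edgeR adjusted p = 0.000402), which is 1.78-fold more in ILC2 with a 95% interval of 1.47 to 2.15. Of the 5 genes of the set that passed the filter on low counts, 1 was called, where 27.1% of the 15339 genes tested were called and 12% were called higher in ILC2. Likewise 1 of the 5 had no overlap between libraries, where 12.1% of all genes had none. With so few genes these shares say nothing about the set beyond Tiparp itself.

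The Tiparp difference was about as large without the library highest in plasma cell markers and the library highest in epithelial markers. Leaving out ILC2 ZT23 replicate 1 (highest plasma cell markers) and ILC3 ZT23 replicate 2 (highest epithelial markers), a choice made after seeing the data, gave -0.84 (edgeR adjusted p = 0.000827). Plasma cell markers were nonetheless higher in ILC2 for 6 of 6 genes, and none was at 0 throughout either cell type. They still summed to 19398 to 100298 CPM in the kept ILC2 libraries, against at most 2651 in the kept ILC3 libraries. Their part in the difference was not tested. Tiparp shares 968 bases with the long non-coding RNA gene 4931440P22Rik. That gene took 1437 counts over all libraries, against 27851 for Tiparp in ILC2 and 30917 in ILC3, and reads from the shared bases cannot be assigned without a stated strand setting.

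The CYP1 enzymes, which oxidise the ligands of the receptor and are the usual readout of its activity, were at or near the limit of detection. Cyp1a1 (Entrez 13076; chromosome 9, 57687928 to 57703824) had 3 counts over the 7 ILC2 libraries, all in ZT10 replicate 2. It had 9 counts over the 8 ILC3 libraries, 6 in ZT16 replicate 1 and 3 in ZT23 replicate 1. Set against 83461935 and 149744881 counts in all, the ratio of ILC3 to ILC2 was 1.67, with an exact 95% interval of 0.417 to 9.60 that covers counting error only. A difference in Cyp1a1 was therefore not detectable at this depth, and the gene did not pass the filter for the test. Cyp1a2, its neighbour and close relative, had 0 counts in every library, which allows up to 0.0359 CPM in ILC2 and 0.0200 in ILC3 (3 counts of the total, counting error only).

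Cyp1b1 was low everywhere, but its counts leaned to ILC3. Cyp1b1 (Entrez 13078; chromosome 17, 79706940 to 79715061) had 0 and 12 counts in ILC2 counts at ZT4, 2 and 3 counts at ZT10, 2 counts at ZT16, and 1 and 0 counts at ZT23. In ILC3 it had 4 and 28 counts at ZT4, 5 and 29 counts at ZT10, 57 and 28 counts at ZT16, and 35 and 8 counts at ZT23. Every ILC3 library held at least 1 count and 2 ILC2 libraries held none, but the ranges of 0 to 0.975 CPM in ILC2 and 0.199 to 2.64 CPM in ILC3 overlapped. Set against total counts, the 194 ILC3 counts and 20 ILC2 counts gave a ratio of 5.41 (exact 95% interval 3.41 to 9.05, counting error only). With the spread between libraries included, the log2 fold change was 2.51 ± 0.93 (95% interval 0.49 to 4.53) and edgeR's adjusted p was 0.0649, which missed the threshold of 0.05. DESeq2 called it (2.60, adjusted p = 0.0185), and so did edgeR without ILC2 ZT4 replicate 2 (4.05, adjusted p = 0.0185), the library that held 12 of the 20 ILC2 counts, or without ILC2 ZT23 replicate 1 (3.20, adjusted p = 0.0447). The adjusted p ran from 0.0185 to 0.158 over all alternatives. Of 8 myeloid and mast cell markers 6 were higher in ILC3 and 1 in ILC2. They summed to 2248 to 3995 CPM in ILC3 and to 672 to 1952 CPM in ILC2. Their part in the Cyp1b1 counts was not tested.

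To compare the genes with one another, levels were also taken per length, as CPM divided by gene length in kilobases (RPKM). In ILC2, Tiparp was highest at 84.3 ± 11.6 RPKM, above Ahr at 45.5 ± 14.5, Arnt at 17.8 ± 2.62, Ahrr at 3.79 ± 1.33 and Cyp1b1 at 0.0532 ± 0.0685 (SD, n = 7). In ILC3 the leading pair was level, with Tiparp at 47.4 ± 7.37 and Ahr at 47.4 ± 12.2 RPKM, followed by Arnt at 18.1 ± 2.71, Ahrr at 4.76 ± 2.63 and Cyp1b1 at 0.229 ± 0.146 (n = 8). Among all genes counted, Ahr stood above 92.2% of genes in ILC2 and 92.4% in ILC3, Tiparp above 96.0% and 92.4%, and Ahrr above 61.5% and 62.9%. Receptor and feedback enzyme were thus among the more abundant messages of both cell types, while the CYP1 genes were close to none.

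The balance of the set was then followed as ratios of RPKM within a library, a measure added after seeing the data. There were 1.95 ± 0.393 Tiparp messages per Ahr message in ILC2 (range 1.23 to 2.46) and 1.05 ± 0.229 in ILC3 (range 0.827 to 1.57). The difference in the log2 ratio was -0.89, a ratio 1.86-fold larger in ILC2, with a two-sided exact permutation p of 0.000777 over the 6435 arrangements of 7 and 8 libraries (adjusted p = 0.00233 over the 3 ratios tested). The ranges overlapped through ILC2 ZT23 replicate 2 (1.23) and ILC3 ZT23 replicate 2 (1.57), the libraries with the most and the least Ahr of all 15. For Ahr to Arnt the ratio was 2.53 ± 0.594 in ILC2 and 2.59 ± 0.460 in ILC3 (log2 difference 0.04, exact permutation p = 0.831). For Ahrr to Ahr it was 0.0863 ± 0.0324 and 0.103 ± 0.0574 (log2 difference 0.10, exact permutation p = 0.806, adjusted p = 0.831), so the share of repressor to receptor showed no difference larger than its spread.

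**Figure D2:**
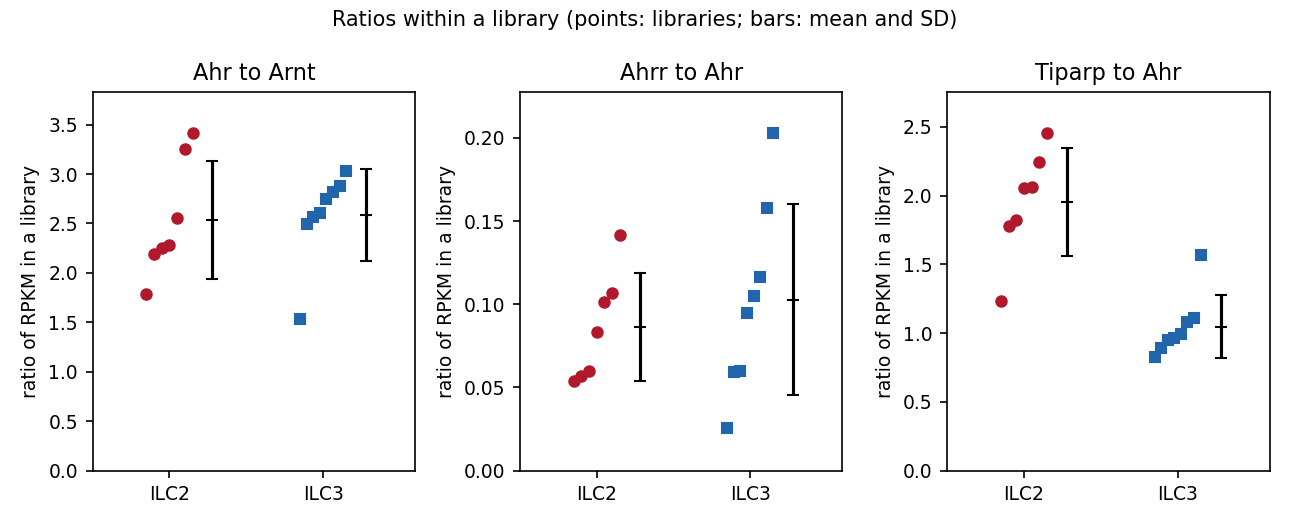
Ratios of RPKM within a library for Ahr to Arnt, Ahrr to Ahr and Tiparp to Ahr (vertical axes from 0), with the 7 ILC2 libraries as red circles and the 8 ILC3 libraries as blue squares, each sorted by value, and bars at mean and SD. The Tiparp to Ahr ratio averages 1.95 in ILC2 and 1.05 in ILC3, and the other ratios lie at the same height in both.

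Over the day 0 of the 5 tested genes passed edgeR's test of time in either cell type. On simulated counts the test in ILC3 called 0% of 2-fold and 46% of 4-fold changes planted at 1 time in genes drawn at random. Neither time in ILC2 nor genes with the spread of these 5 were simulated separately. The lack of a call therefore does not show that the genes were level over the day. In order of group means, Ahr stood at 301 ± 13.9 CPM in ILC3 ZT10, 297 ± 17.2 in ILC2 ZT10, 287 ± 5.20 in ILC3 ZT16, 283 ± 62.6 in ILC3 ZT4, 275 ± 157 in ILC2 ZT23, 221 in ILC2 ZT16, 193 ± 4.45 in ILC2 ZT4 and 169 ± 67.8 in ILC3 ZT23 (SD, n = 2 each, n = 1 for ILC2 ZT16). Neighbours in this order differed by less than the larger SD of the pair, except ILC2 ZT16 and ILC2 ZT4, of which the former is 1 library. Both ILC3 ZT23 libraries, at 217 and 121 CPM, were the lowest of the 8 ILC3 libraries, and the ratio of the highest to the lowest time was 1.78. The test of time in ILC3 gave an unadjusted p of 0.155 for Ahr and an edgeR adjusted p of 0.965. Epithelial markers were 833 and 6533 CPM in these ZT23 libraries against 417 to 2697 in the other ILC3 libraries. Replicate 2 thus stood above that range and replicate 1 within it. The part of other cells in the lower Ahr at ZT23 was not tested.

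Tiparp in ILC3 averaged 221 ± 35.3 CPM at ZT4, 204 ± 31.1 at ZT10, 200 ± 5.11 at ZT16 and 163 ± 27.4 at ZT23. In ILC2 it averaged 329 ± 33.4 CPM at ZT4, 405 ± 30.3 at ZT10, 343 at ZT16 and 320 ± 57.0 at ZT23. The ILC2 mean stood above the ILC3 mean at each of the 4 times, and the interaction of cell type and time had an unadjusted p of 0.604. For Ahrr in ILC3 the highest group was ZT16 at 32.6 ± 9.86 CPM and the lowest ZT4 at 15.6 ± 11.8, within the spread of the pairs. Cyp1b1 was also highest at ZT16 in ILC3, at 2.01 ± 0.895 CPM, against 0.674 ± 0.672 at ZT10. Adjusted p was 0.965 or above for each of the 5 genes in each test of time and for the interaction. Of all genes tested 0% were called over time in ILC2, over time in ILC3 or for the interaction, with 516, 669 and 307 genes at an unadjusted p under 0.05 (3.36%, 4.36% and 2% of genes), and 0 of the 5 at that level. DESeq2 called 24, 28 and 2 genes in these tests, none of them from the set.

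Within a cell type, Ahr was followed against its partner and targets across libraries. Of 28 relations computed, 4 had an adjusted p under 0.05 by Pearson's r. In ILC3, Ahr and Arnt had r = 0.84 (exact permutation p = 0.00260, adjusted p = 0.0333) and rho = 0.93 (exact permutation p = 0.00223, adjusted p = 0.0313, n = 8). Ahr and Tiparp had r = 0.89 in ILC3 (exact permutation p = 0.00193, adjusted p = 0.0333) and rho = 0.83 (exact permutation p = 0.0154, adjusted p = 0.0718). The 2 libraries farthest from the median of Ahr were those of ZT23, and without them r was 0.76 for Arnt and 0.64 for Tiparp, so these relations rested in part on that time. In ILC2 the same relations did not pass, with r = 0.69 for Arnt (exact permutation p = 0.0843, adjusted p = 0.208) and r = 0.74 for Tiparp (exact permutation p = 0.0563, adjusted p = 0.175; rho 0.64 and 0.79, exact permutation p = 0.139 and 0.0480, adjusted p = 0.324 and 0.122; r = 0.78 and 0.85 without the 2 farthest libraries). Whether the cell types differ in these relations was not tested.

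Ahr was lower in libraries with higher plasma cell markers in both cell types. In ILC2 most of the plasma cell sum (19398 to 195574 CPM) was the marker Jchain, at 18105 to 188364 CPM. The relations to that sum in ILC2 therefore rest largely on 1 gene. In ILC3 Jchain averaged 1433 ± 1257 CPM, again the largest of these markers. Against epithelial markers in ILC2 no relation was detected (r = 0.0075, exact permutation p = 0.988, adjusted p = 0.988; rho 0.071, exact permutation p = 0.906, adjusted p = 0.976; r = 0.041 without the 2 farthest libraries). In ILC2, log2 Ahr and the summed plasma cell markers had r = -0.93 (exact permutation p = 0.00357, adjusted p = 0.0333, n = 7) and rho = -0.82 (exact permutation p = 0.0341, adjusted p = 0.103), and r was -0.79 without both ZT23 libraries. In ILC3 the relation to plasma cell markers had r = -0.82 (exact permutation p = 0.00561, adjusted p = 0.0392), rho = -0.88 (exact permutation p = 0.00724, adjusted p = 0.0507) and r = -0.74 without the 2 farthest libraries. Against epithelial markers in ILC3, r was -0.90 for Ahr (exact permutation p = 0.00930, adjusted p = 0.0521; rho -0.88, exact permutation p = 0.00724, adjusted p = 0.0507; r = -0.80 without the 2 farthest libraries). For Tiparp r was -0.81 (exact permutation p = 0.0136, adjusted p = 0.0637; rho -0.93, exact permutation p = 0.00223, adjusted p = 0.0313; r = -0.95 without the 2 farthest libraries). Against plasma cell markers in ILC2, r was -0.84 for Arnt, -0.71 for Tiparp, -0.56 for Ahrr and 0.26 for Cyp1b1 (exact permutation test, adjusted p = 0.0746, 0.208, 0.390 and 0.725). The spread of Ahr between replicates, above all the pairs of ZT23, therefore went together with plasma cell markers. In ILC3 the relation of Ahr to epithelial markers (r = -0.90, exact permutation test, adjusted p = 0.0521) missed the threshold of 0.05. The part of those cells in the relations among the AHR genes was not tested.

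**Figure D3:**
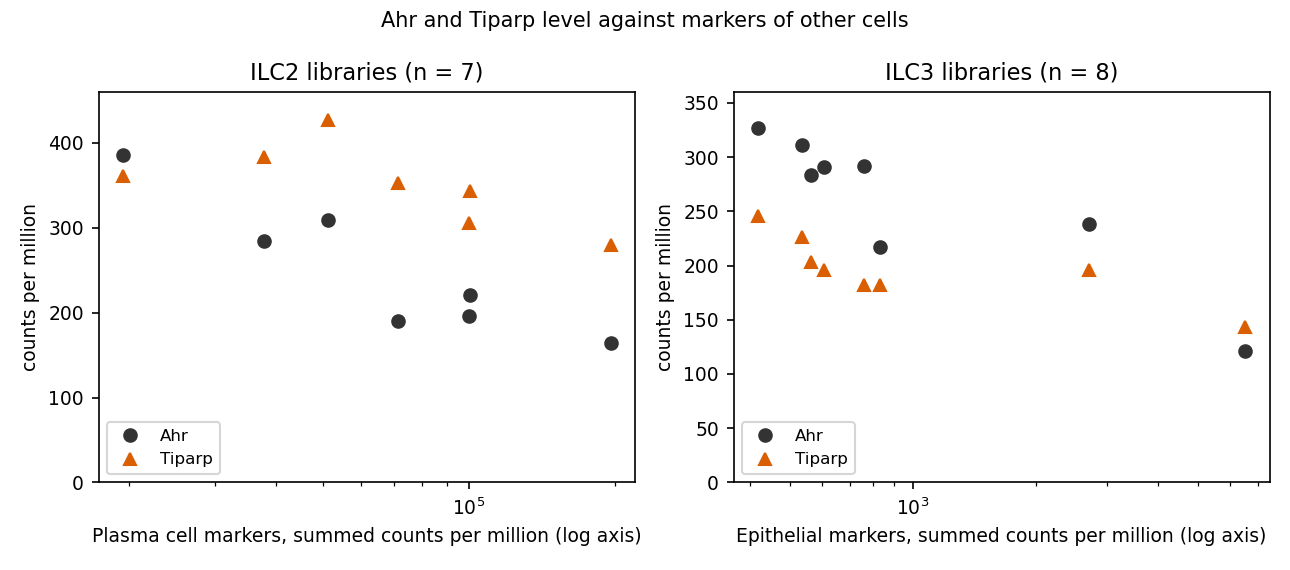
Ahr (black circles) and Tiparp (orange triangles) in CPM against the summed level of plasma cell markers in the 7 ILC2 libraries (left) and of epithelial markers in the 8 ILC3 libraries (right), both on log horizontal axes. Ahr is highest (386) in the ILC2 library with the lowest plasma cell markers and lowest (121) in the ILC3 library with the highest epithelial markers.

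The genes most like Ahr over the 15 libraries were sought among 9469 genes with a mean of at least 10 CPM in either cell type, by Pearson's r of log2(CPM + 1). They were Wdr26 (0.95), Jak1 (0.93), Msn (0.93), Rps6ka3 (0.92) and Vezf1 (0.92), of which Jak1 encodes a cytokine receptor kinase and Msn the cytoskeletal linker moesin. After each cell type's mean was subtracted the leading genes included Usp25 (0.96), Prex1 (0.95), Wdr26 (0.95) and Mfhas1 (0.94). Arnt ranked 264 in the first order and 580 in the second, so many genes tracked Ahr more closely than its partner did. Tiparp ranked 2976 and 288, and Ahrr 2301 and 3075. These are descriptions across libraries that share depth and content of other cells.

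The other genes of the pathway were read in lists, each set beside all genes tested, whose median log2 fold change was 0.11 and of which 15.1% (2318 genes) were called higher in ILC3 and 12% (1839 genes) higher in ILC2. Scaling by library size alone moved this median to 0.26 and the split to 2981 and 1315. Of 7 genes for the cytosolic complex and for turnover of the receptor, 2 were higher in ILC3, 1 was higher in ILC2 and 4 were not called (median 0.06). Src, the kinase known to be released from the complex when a ligand binds, was higher in ILC2, at 42.0 ± 8.61 CPM against 19.7 ± 4.73 in ILC3 (-1.10 ± 0.18, edgeR adjusted p = 0.000693), with no overlap. Ptges3, a cochaperone, was higher in ILC3 (0.47 ± 0.13, edgeR adjusted p = 0.0223), as was the ubiquitin ligase gene Stub1 (0.43 ± 0.14, adjusted p = 0.0339). The Ptges3 call was lost without ILC3 ZT16 replicate 2 (adjusted p = 0.0744), and the Stub1 call in 11 of 22 alternatives. The chaperone genes Hsp90ab1 (-0.07 ± 0.13) and Hsp90aa1 (0.06 ± 0.14) and the ubiquitin ligase gene Cul4b (0.07 ± 0.11) were not called.

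Target genes outside the set went both ways. Of 11 genes of the classical AHR battery 10 were tested, and 3 were higher in ILC3, 1 was higher in ILC2 and 6 were not called (median 0.83). Aldh3a1, an aldehyde dehydrogenase, had the largest difference, with 488 counts in ILC2 and 32 in ILC3. Its level was 3.09 to 11.1 CPM in every ILC2 library and 0 to 0.603 in ILC3, with no overlap, and the log2 fold change was -5.40 ± 0.67 (edgeR adjusted p = 9.11e-05). It was -6.40 without ILC3 ZT4 replicate 2 and -6.45 without ILC3 ZT23 replicate 1. Nfe2l2, the regulator of antioxidant genes, was higher in ILC3, at 216 ± 77.3 CPM against 116 ± 23.7 (0.89 ± 0.19, edgeR adjusted p = 0.00410). Xdh, xanthine dehydrogenase, was also called (0.81 ± 0.27, edgeR adjusted p = 0.0429), but lost the call in 12 of 22 alternatives, among them the fit with the replicate number as a block (adjusted p = 0.0683).

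Cyp2s1, a further cytochrome of the battery, averaged 13.3 ± 12.4 CPM in ILC3 and 3.51 ± 3.03 in ILC2 (2.38 ± 0.58, edgeR adjusted p = 0.00919). Its highest library, at 42.5 CPM, was ILC3 ZT23 replicate 2, the one with the highest epithelial markers, and without that library the log2 fold change was 1.82 (adjusted p = 0.0174). It was 1.68 without ILC2 ZT16 (adjusted p = 0.0404). Nqo1, a quinone reductase, behaved alike in that library, at 27.9 CPM against 1.66 to 6.00 in the other 7 ILC3 libraries, and was not called (-0.34 ± 0.43, adjusted p = 0.615). The part of epithelial cells in either value was not tested. Ugt1a6a, Ugt1a6b, Gsta1, Gsta2 and Cdkn1b were not called either, and the first 4 belong to families of near-identical genes whose counts are uncertain.

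**Figure D4:**
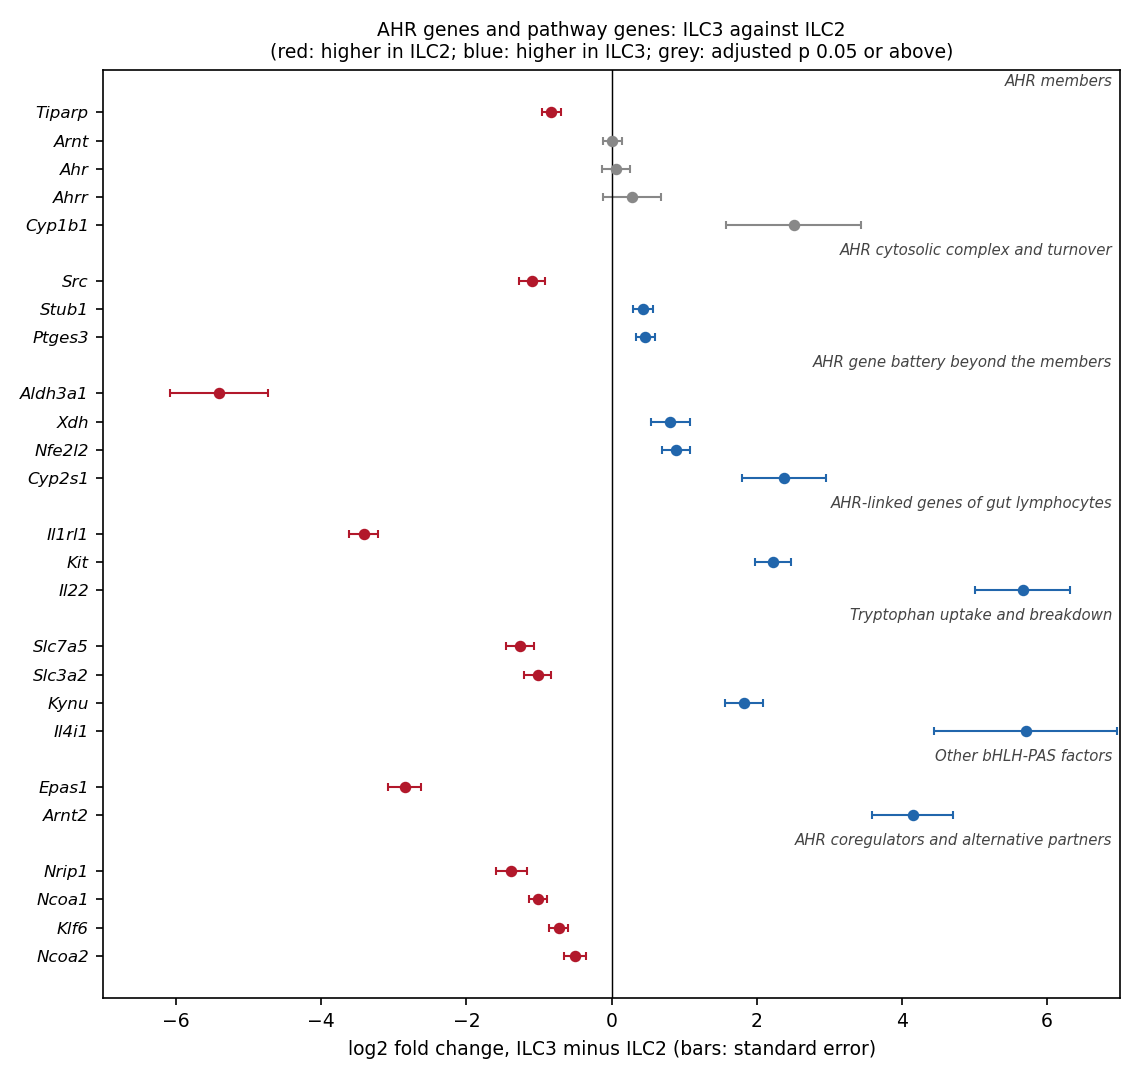
Log2 fold change (ILC3 minus ILC2) with standard error for the 5 tested genes of the set and for the named genes of 6 pathway lists, in red where higher in ILC2, blue where higher in ILC3 and grey where edgeR's adjusted p was 0.05 or above. Tiparp (-0.83) is the coloured gene of the AHR set, while Aldh3a1 (-5.40) and Cyp2s1 (2.38) are the called genes of the battery with the largest differences in either direction.

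Genes that AHR is known to influence in gut lymphocytes also split, with 4 of 12 higher in ILC3, 4 higher in ILC2 and 4 not called (median -0.59). Il22, the cytokine gene, averaged 638 ± 417 CPM in ILC3 and 12.7 ± 8.54 in ILC2 (5.66 ± 0.65, edgeR adjusted p = 4.80e-05; 6.25 without ILC2 ZT4 replicate 1). Il1rl1, the interleukin-33 receptor gene, was at 111 ± 25.1 CPM in ILC2 and 10.4 ± 3.11 in ILC3 (-3.41 ± 0.20). Both genes are also among the markers used to check the labels, so they carry no independent information on AHR. Kit, a stem cell factor receptor gene known from gut ILC3, was at 758 ± 179 CPM in ILC3 and 160 ± 51.7 in ILC2 (2.22 ± 0.24, edgeR adjusted p = 3.44e-05). Mast cells carry Kit as well, and 6 of 8 myeloid and mast cell markers were higher in ILC3, where they summed to 2248 to 3995 CPM against 672 to 1952 in ILC2. Siglech of the same list, known from plasmacytoid dendritic cells, went the other way, at 298 ± 102 CPM in ILC2 and 2.38 ± 1.22 in ILC3. Their part in the Kit value was not tested. Il21 had 51 counts in ILC2 and 0 in ILC3, at least 30.5-fold higher in ILC2 relative to total counts, against a floor of 3 counts over the ILC3 group. Its call (edgeR adjusted p = 0.0201) was lost without ILC2 ZT4 replicate 1 or ILC2 ZT23 replicate 2 (adjusted p = 1.00 in either case). Further calls were Notch2 (-0.77 ± 0.15) and Il10 (-1.72 ± 0.43), higher in ILC2, and Asb2 (0.77 ± 0.20), higher in ILC3, all named after their values were seen. For each of these genes the libraries of the cell types overlapped. Il10 ran from 4.81 to 35.7 CPM in ILC2 and from 1.82 to 15.1 CPM in ILC3. Plasma cell markers were higher in the ILC2 libraries, and their part in the Il10 value was not tested.

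Tryptophan is a source of AHR ligands, and the genes of its uptake and breakdown formed the next list. Of 14 listed genes 11 were tested, with 2 higher in ILC3, 2 higher in ILC2 and 7 not called (median 0.08). Both called ILC2 genes were the 2 chains of the large neutral amino acid transporter. Slc7a5 averaged 159 ± 43.5 CPM in ILC2 and 67.8 ± 18.2 in ILC3 without overlap (-1.26 ± 0.19, edgeR adjusted p = 0.000431). Slc3a2 averaged 1004 ± 305 and 496 ± 166 CPM (-1.02 ± 0.18, edgeR adjusted p = 0.00134). Slc3a2 is also a chain of other transporters, and plasma cell markers were higher in the same libraries, whose part was not tested. Kynu, kynureninase, was higher in ILC3, at 40.0 ± 14.1 against 11.9 ± 3.68 CPM without overlap (1.83 ± 0.26, edgeR adjusted p = 0.000277). Of 8 myeloid and mast cell markers 6 were higher in ILC3 and 1 in ILC2. Their part in the Kynu value, and in that of Il4i1 below, was not tested. Il4i1, an amino acid oxidase known to form AHR ligands from tryptophan, had 210 counts in ILC3, present in all 8 libraries, and 7 in ILC2, all in ZT4 replicate 1. Relative to total counts the ratio was 16.7 (exact 95% interval 7.97 to 42.1, counting error only; edgeR adjusted p = 0.00728, and 0.000899 without ILC2 ZT4 replicate 1).

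Among 13 other bHLH-PAS genes, relatives that share the partner ARNT or belong to the circadian clock, 8 were tested, and 1 was higher in ILC3, 1 higher in ILC2 and 6 not called (median 0.18). The ILC3 count was 2 in 4 of 22 alternatives, among them without ILC2 ZT4 replicate 2. The ILC2 count was 2 in 5 of 22, among them without that library, ILC2 ZT23 replicate 1 or ILC3 ZT23 replicate 1. Epas1, the hypoxia factor that pairs with ARNT, averaged 1207 ± 240 CPM in ILC2 and 167 ± 65.3 in ILC3 without overlap (-2.85 ± 0.23, edgeR adjusted p = 3.62e-06). Of 6 stromal and endothelial markers Cdh5 was higher in ILC2, at 17.0 ± 4.52 CPM against 1.45 ± 1.82 in ILC3, and 5 were not called. The part of such cells in the Epas1 value was not tested. Arnt2, the paralogue of Arnt, averaged 7.47 ± 2.36 CPM in ILC3 and 0.614 ± 0.591 in ILC2 without overlap (4.15 ± 0.56, edgeR adjusted p = 0.000172), and the value was 4.78 without ILC2 ZT16 and 4.82 without ILC2 ZT23 replicate 1. Hif1a, the other main hypoxia factor gene, was at 205 ± 49.4 and 212 ± 61.3 CPM and was not called (0.04 ± 0.18).

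Of 12 genes for coregulators and alternative partners of the receptor, 4 were higher in ILC2, 1 was higher in ILC3 and 7 were not called (median -0.15). Nrip1, a corepressor of nuclear receptors that also binds AHR, averaged 692 ± 128 CPM in ILC2 and 271 ± 112 in ILC3 without overlap (-1.38 ± 0.21, edgeR adjusted p = 0.000464). The coactivator gene Ncoa1 (-1.02 ± 0.13, edgeR adjusted p = 9.11e-05, no overlap) and Klf6, a zinc finger factor known as a further partner of AHR (-0.73 ± 0.13, adjusted p = 0.00132), were higher in ILC2. Ncoa2 was also called (-0.50 ± 0.16, edgeR adjusted p = 0.0299) and lost the call in 8 of 22 alternatives. Relb, an NF-kB subunit that can pair with AHR, was the ILC3 gene (0.55 ± 0.19, edgeR adjusted p = 0.0446), named after its value was seen, and lost the call without any 1 of 11 libraries (adjusted p up to 0.0943). Of the 60 genes tested in these 6 lists, edgeR called 0 over time in ILC2, 0 over time in ILC3 and 0 for the interaction, with 3, 7 and 0 at an unadjusted p under 0.05, and DESeq2 called 0 in each of the tests.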

How the data were processed

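PolyA RNA of sorted ILC2 and ILC3 was sequenced in 15 libraries, made with TruSeq kits from 100 ng of RNA per the labels' protocols. The authors deposited raw read counts per gene with gene lengths, without normalization, and reads were counted with featureCounts on mm10 per the submitters' processing notes. The aligner, strand setting and handling of multi-mapping reads are not given in the sources used here.

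Entrez identifiers were named through RefSeq's GRCm38.p6 gene table (22718 of 22797 matched), which also gave the 1-based positions. Replicates were compared first, with a chi-square of 22.0 to 229 per degree of freedom within groups, so none were merged. Genes passing edgeR's filterByExpr (minimum count 10; 15339 genes) were scaled by TMM and fitted with edgeR 4.0.16 (R 4.3.3) as 8 group means in one model of the 15 libraries, leaving 7 residual degrees of freedom. The tests covered ILC3 minus ILC2 averaged over the 4 times, time within each cell type, and the interaction, with Benjamini-Hochberg adjustment over all genes tested and a threshold of 0.05. RPKM used the gene lengths in the tables. Relations were taken on log2(CPM + 1) within a cell type with exact two-sided permutation tests. Counting intervals are exact at 95%, cover counting error only, and floors are 3 counts. Scripts were tested on simulated data.

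Named genes were the 6 of the set, up to 4 genes of each pathway list with the smallest p among those called, the 5 genes most like Ahr by each measure, and the sort markers. Some of these genes are not reported here. The set and the lists were chosen with earlier results of these data known, so no pattern here is independent support. Alternatives were other scalings, other filters, DESeq2 1.42.0, a replicate block, fits of one cell type, and leaving out libraries.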

Additional observations from a re-analysis of the deposited data

Results flagged for a closer look

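Cyp1a1 stood apart in 1 ILC2 library, ZT10 replicate 2, at 0.165 CPM (3 counts), where the other 6 ILC2 libraries had 0 counts. It was picked out because its gap to the nearest library was the whole range of the group. Any gene with counts in exactly 1 library of a group is picked out in this way. The value is 3 counts, the size of the floor used for an absent gene.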

How the results depend on the processing

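The Tiparp call was kept in all 22 alternatives, at -0.91 to -0.69 on the log2 scale (adjusted p up to 0.00272). Leaving out 1 library at a time gave -0.91 to -0.78 for Tiparp, -0.070 to 0.25 for Ahr, -0.073 to 0.094 for Arnt, -0.18 to 0.48 for Ahrr and 2.07 to 4.05 for Cyp1b1, and -0.042 to 0.14, -0.072 to 0.35 and -1.0002 to -0.83 for the log2 ratios of Ahr to Arnt, Ahrr to Ahr and Tiparp to Ahr. In the same settings 3270 to 4214 genes were called between cell types, and 0 to 3 over time in ILC3 (3 without ILC3 ZT23 replicate 1). With DESeq2, Cyp1b1 was called (2.60), and 24, 28 and 2 genes were called over time in ILC2, over time in ILC3 and for the interaction. Without both ILC2 ZT23 replicate 1 and ILC3 ZT23 replicate 2, Arnt was at -0.06 and Cyp1b1 at 3.35. The cause of these changes was not tested. Of 37 other named genes 31 kept their call in every alternative and 6 (Ptges3, Stub1, Xdh, Ncoa2, Relb, Il21) lost it in 1 or more, with Ncoa2 at an adjusted p of 0.133 when only library size was scaled. Deviations of same-numbered libraries correlated at -0.05 to 0.11 in ILC2 and -0.11 to 0.45 in ILC3. Whether the replicate numbers pair libraries was not tested. With the replicate block 3872 genes were called between cell types and 0 in the tests of time and the interaction, and the values were -0.84 for Tiparp, 0.06 for Ahr, 0.01 for Arnt, 0.35 for Ahrr and 2.51 for Cyp1b1. Depth limits Cyp1a1 and Cyp1a2, and the spread between libraries limits Cyp1b1. Groups of 2 libraries, with 1 at ILC2 ZT16, limit the tests of time.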
